A study of Mus musculus with 12 samples.

Results

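The 34 interferon-stimulated and antigen presentation genes described here were chosen by symbol from the 23893 genes of a raw count table made from mouse cortical neuron cultures. The symbols were listed with earlier results of these same libraries known, so the number that passed a test describes the list and is not independent evidence of its direction. All 34 symbols were in the table. By role they comprised 19 antiviral effectors, 3 cytosolic RNA sensors, 4 transcription factors, 1 negative regulator, 1 chemokine and 6 genes of antigen presentation by major histocompatibility complex (MHC) class I molecules.

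The study asked how far the loss of topoisomerase 1 (TOP1), an enzyme that relaxes DNA during transcription, changes neuronal transcripts in comparison with topotecan, a drug that holds TOP1 on DNA as a cleavage complex. RNA-seq was performed on 12 cultures of embryonic cortex from C57BL6 mice, 3 in each of 4 groups. Per the study's methods, every culture was homozygous for a floxed Top1 allele (Top1 fl/fl) and received a lentivirus at 3 days in vitro (DIV). The virus of the groups named wild-type (WT) in the labels carried the fluorescent protein tdTomato, and that of the Top1cKO groups (Top1 cKO below) carried tdTomato-P2A-CRE, with the CaMKIIα promoter driving both. At DIV 15 the cells of each genotype were given 300 nM topotecan (Topot) or 0.003% DMSO as vehicle (Veh), and RNA was taken at DIV 18. This gave the groups WT-Veh and WT-Topot, and likewise Top1 cKO-Veh and Top1 cKO-Topot. All 4 groups, the controls included, carried a lentivirus, and because the CaMKIIα promoter is active in neurons, other cells of the dish were not the target of CRE. The libraries came from whole cultures, in which fewer cells of a type and less RNA per cell cannot be told apart.

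Type I interferons signal through the receptor IFNAR and its kinases to a complex that holds STAT2 and IRF9 and binds the interferon-stimulated response element (ISRE) of target genes. Interferon gamma acts through another element, the gamma-activated site (GAS). Among the targets are antiviral effectors and the class I pathway, in which the proteasome cuts proteins, TAP carries the peptides into the endoplasmic reticulum and a heavy chain with beta-2 microglobulin shows them at the cell surface. Resting neurons of the brain are known for low levels of class I molecules.

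The promoters of members whose levels differed between groups are shown first, beside one of a classical target, because they show which members held a typical interferon motif close to the start. RefSeq windows from 250 bases before to 50 bases after the start (build GRCm38.p6) existed for 28 of the 34 members and were searched on both strands for the ISRE (GAAANNGAAA), the GAS (TTCNNNGAA) and the kappa B site (GGGANTTTCC). The ISRE was found in 13 of the 28 members with a window (46.4%), compared with 3.99% of 27025 genes. The GAS was found in 6 members, compared with 9.55% of all genes, and the kappa B site in 1 member, compared with 0.466%. Each sequence below is the 250 bases before the start, 5′ to 3′ on the strand of the gene, with motif matches in capitals. B2m (beta-2 microglobulin, chr2:122147437-122147686, plus strand) held an ISRE match 139 to 130 bases before the start and a kappa B match 126 to 117 bases before it.
B2m: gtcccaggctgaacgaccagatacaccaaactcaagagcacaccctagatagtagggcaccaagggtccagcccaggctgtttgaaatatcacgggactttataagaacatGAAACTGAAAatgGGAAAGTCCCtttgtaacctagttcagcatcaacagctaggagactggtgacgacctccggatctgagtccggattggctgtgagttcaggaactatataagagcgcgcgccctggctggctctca
Isg15 (a ubiquitin-like protein joined to other proteins, chr4:156200819-156201068, minus strand), picked for display after its values were seen, held 3 overlapping ISRE matches that began 78, 72 and 66 bases before the start.
Isg15: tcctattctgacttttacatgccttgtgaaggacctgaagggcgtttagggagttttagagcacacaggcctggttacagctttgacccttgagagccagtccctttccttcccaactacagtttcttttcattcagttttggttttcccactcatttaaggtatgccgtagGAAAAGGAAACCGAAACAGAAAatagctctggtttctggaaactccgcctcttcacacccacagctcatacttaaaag
Ifit2 (a protein that binds foreign RNA, chr19:34550444-34550693, plus strand) held a GAS match that began 241 bases before the start of this window.
Ifit2: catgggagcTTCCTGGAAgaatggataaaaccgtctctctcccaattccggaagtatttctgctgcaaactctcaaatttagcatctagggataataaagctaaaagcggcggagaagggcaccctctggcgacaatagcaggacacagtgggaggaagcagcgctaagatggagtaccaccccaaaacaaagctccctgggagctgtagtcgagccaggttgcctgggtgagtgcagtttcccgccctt
Samd9l (an inhibitor of viral and cellular translation, chr6:3399572-3399821, minus strand) and Irf9 (chr14:55603735-55603984, plus strand) held no match to the 3 motifs in their windows.
Samd9l: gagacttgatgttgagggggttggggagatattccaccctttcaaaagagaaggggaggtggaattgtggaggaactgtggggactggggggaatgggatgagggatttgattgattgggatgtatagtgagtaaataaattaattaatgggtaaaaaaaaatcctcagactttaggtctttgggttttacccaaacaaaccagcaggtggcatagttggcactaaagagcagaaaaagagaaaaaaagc
Irf9: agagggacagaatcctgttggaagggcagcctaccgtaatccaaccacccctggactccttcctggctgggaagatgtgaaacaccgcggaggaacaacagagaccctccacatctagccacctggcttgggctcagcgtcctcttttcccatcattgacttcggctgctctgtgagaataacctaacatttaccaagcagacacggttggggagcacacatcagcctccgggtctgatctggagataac
Windows of Lgals3bp, H2-K1, H2-D1 and Tap1 also lacked these letters. A match is a description of the sequence, and a window without one says nothing of elements elsewhere.

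The libraries held 1730164 to 4583777 counts, so that 3 counts in a library corresponded to 0.687 to 1.73 CPM (counts per 1000000 of the TMM-adjusted library size). Top1 itself stood at 117 to 163 CPM in the 6 WT libraries and at 27.1 to 44.0 CPM in the 6 Top1 cKO libraries, and these ranges did not overlap. Its log2 fold change was −1.98 in Top1 cKO-Veh against WT-Veh (adjusted p = 0.00119) and −2.07 in Top1 cKO-Topot against WT-Topot (adjusted p = 5.19e-07). Of the labelled cell type, the 8 neuron markers summed to 5977 to 7975 CPM with none at 0 in any group, and all libraries also held other cells. The 15 microglia markers summed to 13.2 to 36.6 CPM in WT-Veh and 14.1 to 36.4 in WT-Topot, with 5.01 to 12.8 in vehicle-treated and 3.5 to 13.9 in topotecan-treated Top1 cKO cells, with Tyrobp at 0 in both Top1 cKO groups. The 9 astrocyte markers ranged from 661 to 3834 CPM, the 8 oligodendrocyte markers from 96.2 to 294 (Mag at 0 in all groups) and the 12 endothelial and mural markers from 13.5 to 55.8. The 5 fibroblast markers followed the replicate numbers of the labels: 79.3 to 254 CPM in the 4 replicate 1 libraries, 18.3 to 20.2 in replicate 2 and 35.7 to 58.6 in replicate 3.

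The members were weakly expressed in these cultures. Of the 34, 21 had a mean of at least 1 CPM over the 12 libraries and 13 lay under it. A group is called at the floor for a gene when each of its libraries held at most 3 counts. By this measure 18 members were above the floor in all 4 groups, and 16 were at it in at least 1 group. Zbp1, Ifi44, Dhx58, Usp18 and Psmb9 were at the floor in all 4 groups. Rtp4, Irf7 and Cxcl10 were at it in 3 groups, Isg15, Mx1, Xaf1 and Psmb8 in 2, and Ifit1, Rsad2, Bst2 and Ifi35 in 1. The members were also short: their genomic spans ran from 1.40 to 50.5 kb with a median of 9.98 kb, and 0 exceeded 100 kb.

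**Figure D1:**
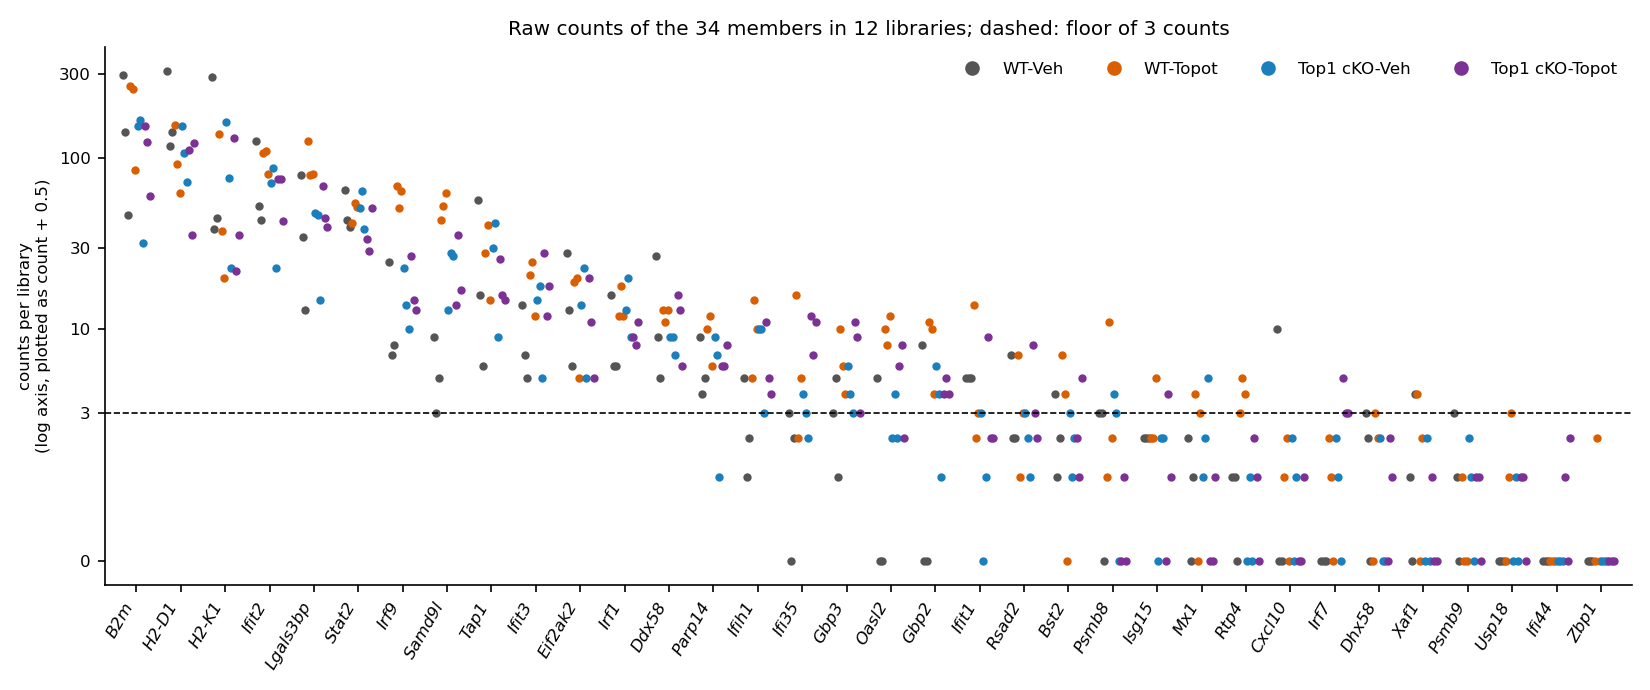
Raw counts of the 34 members (x axis, in order of mean level) in the 12 libraries (points, coloured by group) on a log axis, with the floor of 3 counts as a dashed line. The members at the right, from Ifit1 on, each lie at or under 3 counts in most of the 12 libraries, though Ifit1 held 5 counts in each WT-Veh library. Zbp1 is above 0 in 1 library only.

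The median level of the 34 members, as log2(CPM + 1), was 1.45, 1.06 and 1.11 in WT-Veh replicates 1 to 3 and 2.12, 1.83 and 1.65 in WT-Topot. It was 1.55, 0.94 and 1.00 in vehicle-treated and 2.13, 1.5 and 1.46 in topotecan-treated Top1 cKO cells. The WT-Topot libraries all lay above the WT-Veh libraries, and the Top1 cKO groups overlapped. Within each replicate number the topotecan library lay above the vehicle library in both genotypes. Replicate 1 was the highest library of every group. These medians are a description and carry no test.

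In WT cells, topotecan went with higher levels of Samd9l and Irf9. Of the 34 members, 2 passed an FDR of 0.01 in WT-Topot against WT-Veh, both higher, while 2.72% of all genes passed. The replicate numbers of the labels paired the cultures (libraries with the same number deviated together from their group means). With the number as a block, 5 members passed, with Lgals3bp higher and H2-K1 and H2-D1 lower in addition, against 8.25% of all genes. The median fitted log2 fold change of the members was 0.38 (all genes: 0.00). It was 0.03 with the floor handled as follows. Members at the floor in both groups were set to 0. Those at it in 1 group were set to their bound, or to 0 where the bound showed no difference. This left 17 members positive, 8 negative and 9 at 0, and the zeros pull the median towards 0. At an unadjusted p under 0.05, 8 members were higher and 1 was lower, while 5.88% of all genes were higher and 7.18% lower.

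In Top1 cKO-Veh against WT-Veh, 0 members passed edgeR's quasi-likelihood test without the block, where 0.172% of all genes did. DESeq2 and edgeR's exact test also called 0, and at an unadjusted p under 0.05 1 member was higher and 1 was lower (all genes: 3.9% higher and 4.82% lower). With the block, 3 members passed (Samd9l higher, B2m and H2-D1 lower), against 5.56% of all genes. The median log2 fold change of the members was −0.26, and 0.00 with the floor handled as above (8 members positive, 12 negative and 14 at 0). This comparison and the preceding one share the WT-Veh libraries.

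Within Top1 cKO cells, topotecan was followed by no call among the members. In Top1 cKO-Topot against Top1 cKO-Veh, 0 members passed the quasi-likelihood test without the block (0.00837% of all genes) and 0 with it (2.59% of all genes). DESeq2 and the exact test called 0, and 1 member was higher at an unadjusted p under 0.05 (1.69% of all genes). The median log2 fold change was 0.38, and 0.00 with the floor handled as above (17 members positive, 5 negative and 12 at 0). The difference itself was tested as the interaction of topotecan and Top1 deletion over all 12 libraries. Here 0 members passed without the block (0.435% of all genes; DESeq2 called 1, Samd9l, and 2 were lower at an unadjusted p under 0.05, as were 3.65% of all genes), and Samd9l and Irf9 passed with it (3.97% of all genes).

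Set against each other under topotecan, the genotypes differed in Irf9. In Top1 cKO-Topot against WT-Topot 1 member passed (Irf9, lower), as did 2.49% of all genes, and with the block 3 passed (Irf9, Samd9l and B2m, all lower), as did 8.69% of all genes. WT-Topot against Top1 cKO-Veh sets topotecan beside Top1 deletion, where Top1 was reduced and not absent (27.1 to 44 CPM in Top1 cKO-Veh). Here 1 member passed (Irf9, higher), as did 1.53% of all genes. With the block, 5 passed (Ifit2, Samd9l, Lgals3bp, Irf9 and B2m, all higher), as did 7.73% of all genes. The median log2 fold change of the members was −0.39 and 0.75 in these comparisons. With the floor handled as above it was −0.14 (8 positive, 18 negative and 8 at 0) and 0.15 (22 positive, 4 negative and 8 at 0).

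**Figure D2:**
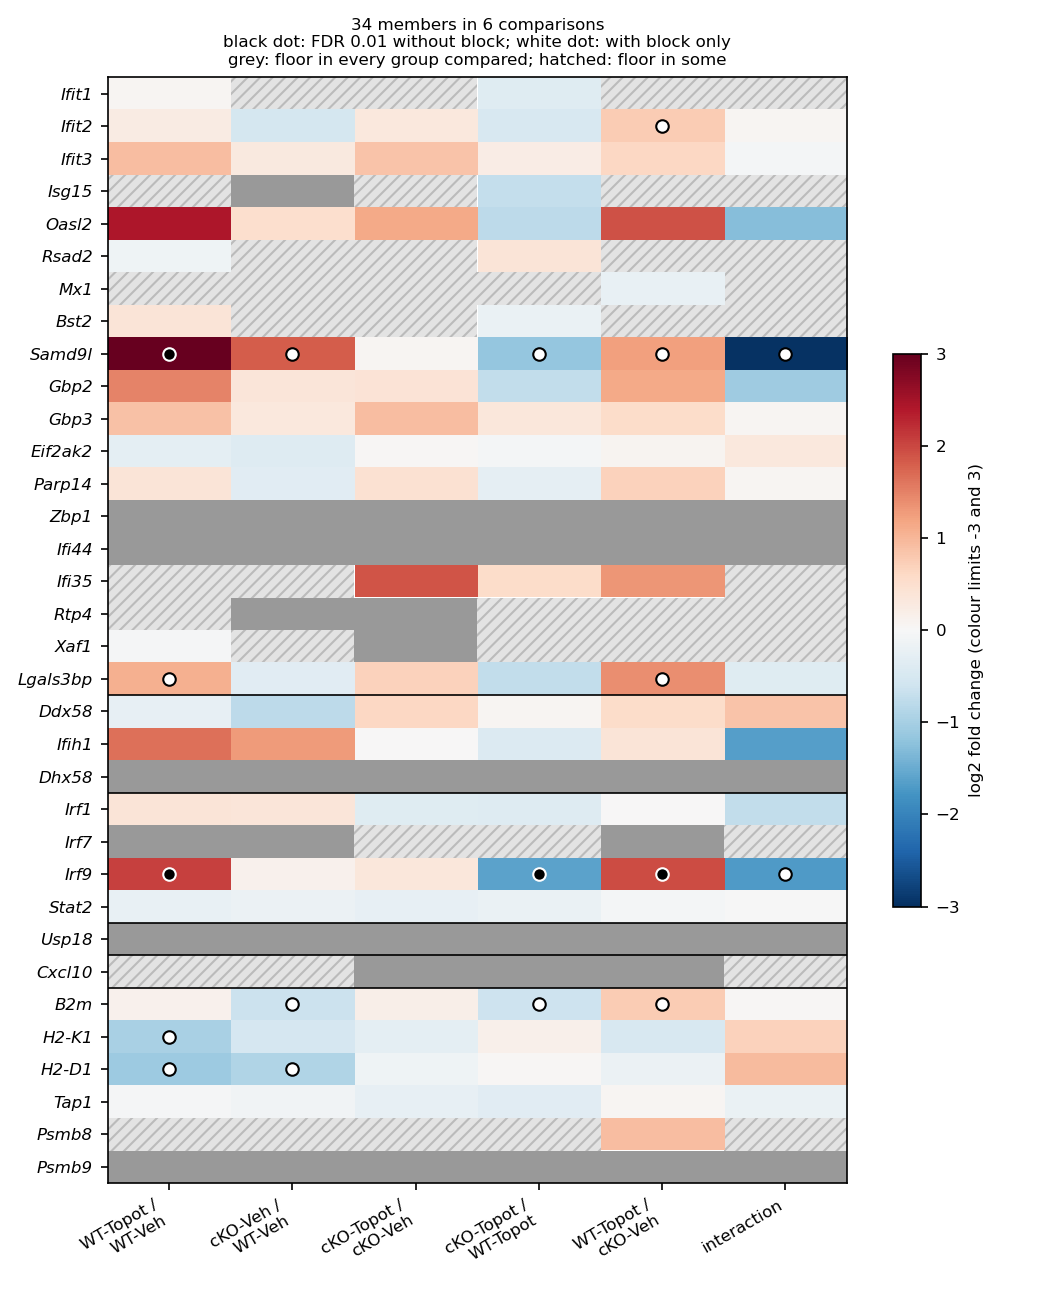
Fitted log2 fold changes of the 34 members (rows, ordered by role) in 5 comparisons of groups and their interaction (columns), red for higher and blue for lower in the group named first, with grey or hatched cells where all or some of the groups compared were at the floor. Black dots mark calls at an FDR of 0.01 without the block and white dots calls made only with it: they sit in 7 rows, with Samd9l and Irf9 marked most often.

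Among the transcription factors, Irf9 was the member that moved. IRF9 is the DNA-binding subunit of the complex that also holds STAT2. Irf9 (mm9 chr14:56222408-56228867, plus strand) stood at 7.31, 3.07 and 4.61 CPM in WT-Veh (replicates 1 to 3) and at 23.1, 14.6 and 27.4 CPM in WT-Topot. It stood at 8.99, 3.21 and 5.01 CPM in vehicle-treated and at 10.8, 4.98 and 5.68 CPM in topotecan-treated Top1 cKO cells. Each WT-Topot library lay above all libraries of the other 3 groups, which overlapped each other. The group means were 5 ± 2.15, 21.7 ± 6.52, 5.74 ± 2.96 and 7.14 ± 3.15 CPM (SD, n = 3). In WT-Topot against WT-Veh, Irf9 rose 4.17-fold (log2 2.06, SE 0.377, adjusted p = 0.00165). In Top1 cKO-Veh against WT-Veh its log2 fold change was 0.14 and in Top1 cKO-Topot against Top1 cKO-Veh 0.35 (adjusted p = 1 in each). Irf9 was lower in Top1 cKO-Topot than in WT-Topot (log2 −1.60, SE 0.354, adjusted p = 0.00655), a call lost without WT-Topot replicate 3 (−1.40, adjusted p = 0.0184) and without Top1 cKO-Topot replicate 2 (−1.39, adjusted p = 0.0487). Its level in WT-Topot exceeded that in Top1 cKO-Veh (log2 1.95, SE 0.385, adjusted p = 0.0068), a call lost without WT-Topot replicate 1 (adjusted p = 0.0146), WT-Topot replicate 3 (0.0279) or Top1 cKO-Veh replicate 2 (0.0441). The interaction was −1.71 (SE 0.621, adjusted p = 0.306) and, with the block, −1.77 (SE 0.45, adjusted p = 0.00769). Irf9 overlaps Rnf31 by 123 bases on the same strand, so reads of that stretch could be counted for either gene. Rnf31, a subunit of a ubiquitin ligase, stood at 10.9 to 16.7 CPM in WT-Veh and 11.6 to 18.3 CPM in WT-Topot (log2 0.22, adjusted p = 1).

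Stat2 and the other IRF genes of the list did not pass the test in any comparison. Stat2 stood at 19.0, 19.3 and 23 CPM in WT-Veh and 14.1, 15.7 and 22.3 in WT-Topot, with 19.9, 14.7 and 19.5 in vehicle-treated and 13.5, 9.63 and 22.3 in topotecan-treated Top1 cKO cells. All 4 groups overlapped (WT-Topot against WT-Veh log2 −0.23, adjusted p = 0.947). Irf1, which is induced by interferon gamma, stood at 4.68, 2.63 and 3.46 CPM in WT-Veh and 4.02, 5.15 and 5.14 in WT-Topot. It stood at 5.08, 4.58 and 4.51 CPM in vehicle-treated and 3.58, 2.66 and 4.81 in topotecan-treated Top1 cKO cells, again with overlap (WT-Topot against WT-Veh log2 0.38, adjusted p = 0.942). Irf7, the factor that amplifies interferon production, was at the floor in 3 groups: it held 0, 0 and 0 counts in WT-Veh, 2, 1 and 0 in WT-Topot and 2, 1 and 0 in Top1 cKO-Veh. In Top1 cKO-Topot it held 5, 3 and 3 counts. No fold is given for Irf7 among the groups at the floor.

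Of the 19 antiviral effectors, Samd9l had the largest fold change among those called. Samd9l (mm9 chr6:3322257-3349571, minus strand, 27.3 kb) stood at 2.63, 1.31 and 2.88 CPM in WT-Veh and at 14.7, 15.2 and 27.0 CPM in WT-Topot. It stood at 5.08, 6.41 and 13.5 CPM in vehicle-treated and at 5.58, 12 and 7.43 CPM in topotecan-treated Top1 cKO cells. The WT-Veh libraries were the lowest and the WT-Topot libraries the highest, neither overlapping another group, and the Top1 cKO groups lay between and overlapped each other. The group means were 2.28 ± 0.841, 19.0 ± 6.94, 8.34 ± 4.54 and 8.32 ± 3.28 CPM (SD, n = 3). In WT-Topot against WT-Veh, Samd9l rose 8.18-fold (log2 3.03, SE 0.428, adjusted p = 0.000114). In Top1 cKO-Veh against WT-Veh the fold was 3.53 (log2 1.82, SE 0.531), which passed with the block (1.74, adjusted p = 0.00298) and not without it (adjusted p = 0.175). Topotecan within Top1 cKO cells gave a log2 fold change of 0.06 (adjusted p = 1). Top1 cKO-Topot was lower than WT-Topot with the block (log2 −1.14, adjusted p = 0.00206) but not without it (−1.16, adjusted p = 0.0565). WT-Topot was higher than Top1 cKO-Veh with the block (1.23, adjusted p = 0.000525; without it 1.22, adjusted p = 0.0988, 1.67, adjusted p = 0.0012, when Top1 cKO-Veh replicate 3 was omitted and 0.91, adjusted p = 0.394, when WT-Topot replicate 3 was). The interaction was −2.80 (SE 0.501, adjusted p = 8.58e-05) with the block and −2.97 (SE 0.636, adjusted p = 0.0195) without it, which passed by DESeq2 (adjusted p = 0.00283) and when Top1 cKO-Veh replicate 1 was left out (−3.21, adjusted p = 0.00936).

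Lgals3bp, a secreted glycoprotein that binds galectins, was the other effector called as higher under topotecan in WT cells, with the block. Lgals3bp (mm9 chr11:118254065-118263406, minus strand) stood at 23.1, 15.3 and 7.49 CPM in WT-Veh and 41.6, 22.6 and 34.7 in WT-Topot, with 18.8, 10.8 and 7.52 in vehicle-treated and 27.5, 14.9 and 17.5 in topotecan-treated Top1 cKO cells. WT-Topot was higher than WT-Veh within each replicate number, with overlap between the groups, and lay wholly above Top1 cKO-Veh. The log2 fold change in WT-Topot against WT-Veh was 1.09 with the block (adjusted p = 0.000211) and 1.06 without it (SE 0.334, adjusted p = 0.0875), where it passed only when WT-Veh replicate 1 was left out (1.49, adjusted p = 0.00341). Against Top1 cKO-Veh, Lgals3bp was higher in WT-Topot by 1.37 with the block (adjusted p = 1.58e-05; without it 1.40, SE 0.326, adjusted p = 0.0211).

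Ifit2 stood at 36.6, 23.2 and 25.3 CPM in WT-Veh and 35.9, 31.2 and 34.7 in WT-Topot, with 27.8, 19.9 and 11.5 in vehicle-treated and 29.9, 24.9 and 18.8 in topotecan-treated Top1 cKO cells. The WT groups overlapped (log2 0.25, adjusted p = 0.87), and the WT-Topot libraries lay above all 6 Top1 cKO libraries. Ifit2 passed in WT-Topot against Top1 cKO-Veh with the block (0.77, adjusted p = 0.00845) and not without it (0.76, SE 0.28, adjusted p = 0.2). Its relatives share stretches of sequence, so their reads may be split between the genes. Ifit1, which binds viral RNA caps, held 5, 5 and 5 counts in WT-Veh and 14, 2 and 3 in WT-Topot, with 3, 0 and 1 in vehicle-treated and 9, 2 and 2 in topotecan-treated Top1 cKO cells. Replicate 1 held the most of its counts in each group but WT-Veh. Ifit3 stood at 2.88 to 4.1 CPM in WT-Veh and 5.14 to 7.16 in WT-Topot, without overlap (log2 0.92, adjusted p = 0.38). It stood at 2.51 to 5.87 CPM in vehicle-treated and 3.99 to 11.2 in topotecan-treated Top1 cKO cells.

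The effectors most often used as markers of an interferon response lay near the floor. Isg15, whose promoter is printed above, held 2, 2 and 2 counts in WT-Veh and 2, 2 and 5 in WT-Topot, with 0, 2 and 2 in vehicle-treated and 0, 4 and 1 in topotecan-treated Top1 cKO cells. These counts overlapped in all groups and set no direction. Rsad2 (viperin) held 1 to 8 counts a library, Mx1 0 to 5, Bst2 (tetherin) 0 to 7 and Xaf1 0 to 4. Rtp4 held 1, 1 and 0 counts in WT-Veh and 3, 5 and 4 in WT-Topot. It held 0, 1 and 0 in vehicle-treated and 2, 1 and 0 in topotecan-treated Top1 cKO cells. Its WT-Topot libraries held the most, at these few counts, and it passed in no comparison. Ifi35 held 3, 0 and 2 counts in WT-Veh and 16, 2 and 5 in WT-Topot, with 4, 3 and 2 in vehicle-treated and 12, 7 and 11 in topotecan-treated Top1 cKO cells. Ifi35 passed in 0 comparisons, with or without the block. Zbp1, a sensor of left-handed nucleic acid, was detected with 2 counts in 1 WT-Topot library, and Ifi44 with 3 counts in all.

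The remaining effectors gave no call. Oasl2, related to the oligoadenylate synthetases, stood at 1.46, 0 and 0 CPM in WT-Veh and 3.35, 2.29 and 5.14 in WT-Topot, without overlap. It stood at 0.782 to 1.00 CPM in vehicle-treated and 0.874 to 2.66 in topotecan-treated Top1 cKO cells. Its log2 fold change in WT-Topot against WT-Veh was 2.42 (SE 0.837, adjusted p = 0.136), and with the block 2.48 (adjusted p = 0.0233). It passed when WT-Veh replicate 1, the 1 library of that group with counts, was left out. Gbp2 and Gbp3, guanylate-binding proteins of a family with similar sequences, ranged from 0 to 3.69 and from 0.576 to 4.38 CPM. Eif2ak2 (the kinase PKR) ranged from 2.14 to 8.19 CPM and Parp14, an ADP-ribosyltransferase, from 0.501 to 3.52 CPM. In all 4 genes WT-Veh overlapped both WT-Topot and Top1 cKO-Veh.

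**Figure D3:**
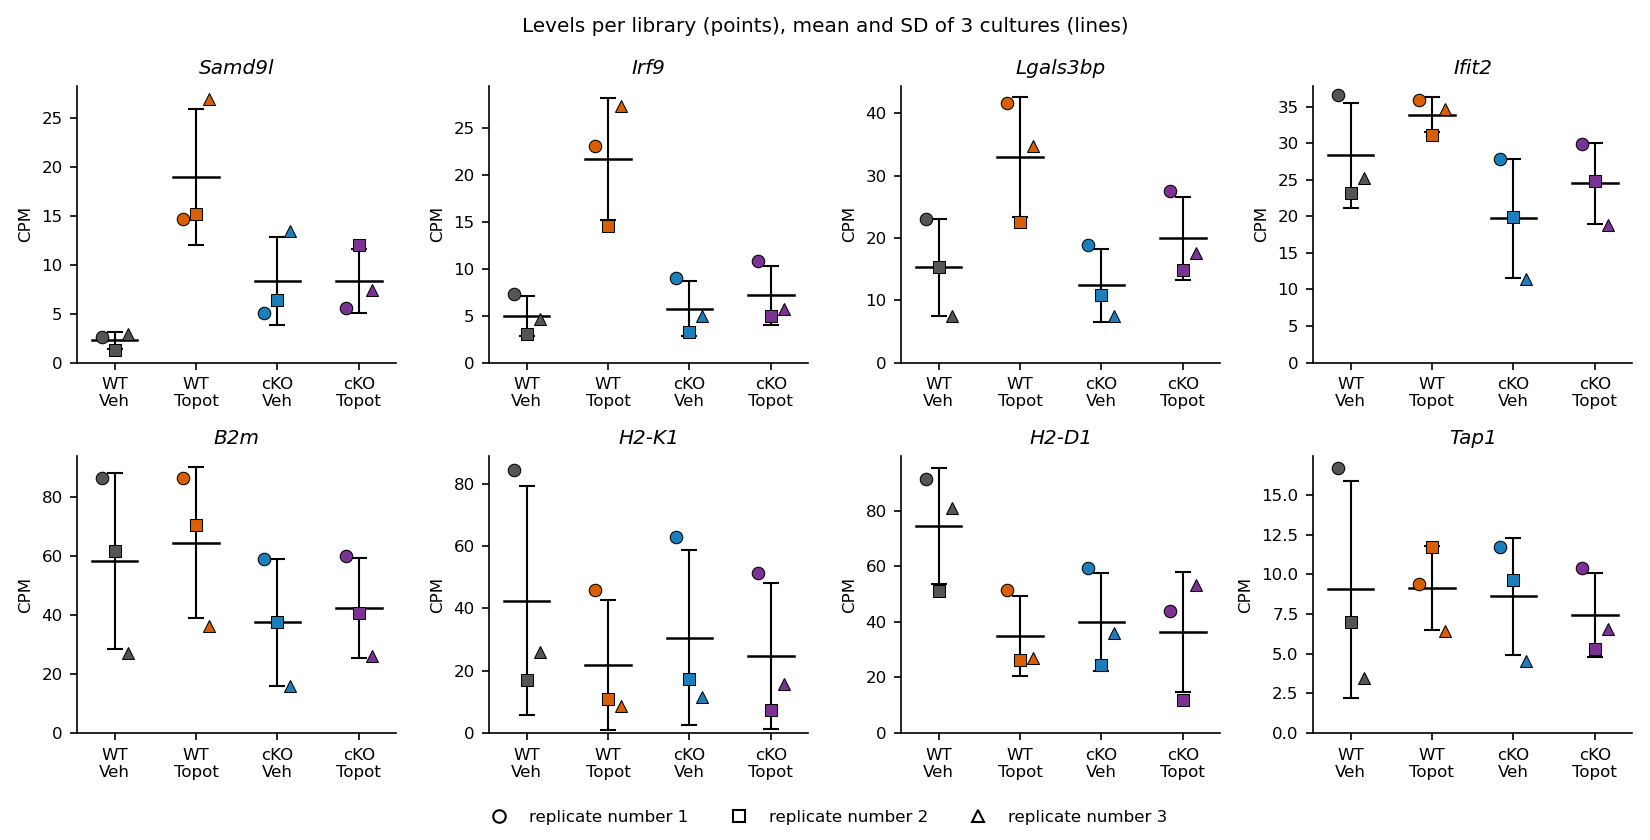
Levels of members in each library (points, CPM on the TMM-adjusted library size) by group and replicate number, with lines for the mean and SD of 3 cultures. Samd9l and Irf9 show WT-Topot libraries above all other groups (14.7 to 27.0 and 14.6 to 27.4 CPM), whereas B2m, H2-K1 and H2-D1 show groups that overlap.

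The RNA sensors of the list signal to interferon genes and are themselves interferon-induced. Ifih1 (MDA5) stood at 1.46, 0.438 and 1.15 CPM in WT-Veh and 1.68, 4.29 and 4.28 in WT-Topot, with 3.91, 2.29 and 1.5 in vehicle-treated and 4.38, 1.66 and 1.75 in topotecan-treated Top1 cKO cells. The 3 other groups lay above WT-Veh and overlapped each other, and Ifih1 did not pass (WT-Topot against WT-Veh log2 1.66, adjusted p = 0.254). Ddx58 (RIG-I) ranged from 2.06 to 7.90 CPM with overlap of all groups and no call. Dhx58 (LGP2), which modulates the other two, held 15 counts in all 12 libraries and at most 3 in any of them. Usp18, the negative regulator that acts at IFNAR2, held 7 counts in all. Cxcl10, a chemokine for T cells, held 10, 0 and 0 counts in WT-Veh and 1, 2 and 0 in WT-Topot, with 2, 0 and 1 in vehicle-treated and 0, 0 and 1 in topotecan-treated Top1 cKO cells, so most of its counts came from WT-Veh replicate 1.

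Of the class I genes among the members, none passed as higher against WT-Veh, and the heavy chains and B2m were lower in comparisons with the block. H2-D1, a class I heavy chain (mm9 chr17:35399675-35404444, plus strand), stood at 91.3, 51.3 and 81.2 CPM in WT-Veh and 51.6, 26.3 and 27.0 in WT-Topot, with 59.4, 24.5 and 36.1 in vehicle-treated and 43.8, 12 and 53.3 in topotecan-treated Top1 cKO cells. The groups overlapped, but within each replicate number WT-Topot and Top1 cKO-Veh were both below WT-Veh, at 0.332 to 0.565 and 0.444 to 0.651 of its level. H2-D1 fell in WT-Topot against WT-Veh with the block (log2 −1.09, SE 0.176, adjusted p = 3.81e-07) but missed the threshold without it (−1.08, SE 0.271, adjusted p = 0.0218). Unblocked, it passed by DESeq2 (adjusted p = 0.00786) and when WT-Veh replicate 2 (−1.30, adjusted p = 0.0028), WT-Veh replicate 3 (−1.02, 0.00537) or WT-Topot replicate 1 (−1.48, 0.000268) was left out. It also fell in Top1 cKO-Veh against WT-Veh with the block (−0.92, SE 0.168, adjusted p = 2.37e-06; without it −0.91, SE 0.303, adjusted p = 0.262). Topotecan in Top1 cKO cells gave −0.13.

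H2-K1, the other heavy chain (mm9 chr17:34132962-34137278, minus strand), stood at 84.6, 17.1 and 25.9 CPM in WT-Veh and 45.9, 10.9 and 8.56 in WT-Topot, with 63.0, 17.4 and 11.5 in vehicle-treated and 51.4, 7.31 and 15.7 in topotecan-treated Top1 cKO cells. Replicate 1 was the highest library of every group, and the groups overlapped. WT-Topot stood at 0.543, 0.636 and 0.33 of WT-Veh within replicates 1, 2 and 3. With the block H2-K1 fell in this comparison (−0.97, SE 0.218, adjusted p = 0.000372), and without it the value was −0.98 (SE 0.519, adjusted p = 0.479). The unblocked value rested on single libraries: it was 0.04 (adjusted p = 1) without WT-Veh replicate 1 and −2.13 (adjusted p = 0.000425) without WT-Topot replicate 1. Heavy chain genes are near-identical over long stretches, so the split of reads among them is uncertain.

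B2m, the light chain of all class I molecules (mm9 chr2:121973422-121978819, plus strand), was lower in Top1 cKO cells with the block. It stood at 86.6, 61.8 and 27.1 CPM in WT-Veh and 86.5, 70.7 and 36.4 in WT-Topot, with 59.1, 37.6 and 16 in vehicle-treated and 60.1, 40.8 and 26.2 in topotecan-treated Top1 cKO cells. In each group replicate 1 was the highest and replicate 3 the lowest, and all groups overlapped. Within replicate numbers, Top1 cKO-Veh stood at 0.592 to 0.682 of WT-Veh and Top1 cKO-Topot at 0.578 to 0.721 of WT-Topot. With the block B2m was lower in both comparisons (log2 −0.66, SE 0.178, adjusted p = 0.00496, and −0.61, SE 0.161, adjusted p = 0.00505). Without it neither passed (−0.64, SE 0.4, adjusted p = 0.796, and −0.61, SE 0.278, adjusted p = 0.295). The B2m level in WT-Topot exceeded that in Top1 cKO-Veh by 0.82 with the block (SE 0.163, adjusted p = 0.000306; without it 0.77, adjusted p = 0.38, with 1.21, adjusted p = 0.00359, when Top1 cKO-Veh replicate 1 was left out and 0.43, adjusted p = 0.512, when Top1 cKO-Veh replicate 3 was). The value in WT-Topot against WT-Veh was 0.13 (adjusted p = 1). Patl2 spans B2m on the opposite strand, and whether strand was used in counting is not given in the sources used here.

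The transporter gene Tap1 and the inducible proteasome subunits among the members, Psmb8 and Psmb9, gave no call. Tap1 (mm9 chr17:34324498-34334170, plus strand) stood at 16.7, 7.01 and 3.46 CPM in WT-Veh and 9.38, 11.7 and 6.42 in WT-Topot, with 11.7, 9.62 and 4.51 in vehicle-treated and 10.4, 5.31 and 6.56 in topotecan-treated Top1 cKO cells. All groups overlapped, and its log2 fold changes ran from −0.33 to 0.07. Psmb8 held 3, 3 and 0 counts in WT-Veh and 1, 11 and 2 in WT-Topot, with 4, 3 and 0 in vehicle-treated and 0, 1 and 0 in topotecan-treated Top1 cKO cells. Psmb9, which overlaps Tap1 by 200 bases on the opposite strand, held 10 counts in all 12 libraries.

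For class I genes the replicate number accounted for more of the variance than the group did. It took 81.9% for H2-K1 (groups 12.2%), 74.5% for B2m (groups 22.3%), 63.1% for Tap1 (groups 3.72%) and 43% for H2-D1 (groups 39.4%). Over the 13720 genes that averaged 1 CPM or more the medians were 25.9% for the number and 40.1% for the groups. For Samd9l and Irf9 the order was the opposite, with 7.08 and 20% for the number and 82.7 and 76% for the groups. The mean of the 4 replicate 1 libraries was 4.28 times that of the other libraries for H2-K1 (61.2 against 14.3 CPM), 1.85 times for B2m, 1.76 times for Tap1 and 1.58 times for H2-D1. Replicate 1 was also the number with the most fibroblast marker counts, and the astrocyte markers in it summed to 3426 CPM in WT-Veh and 1428 in WT-Topot, with 3834 in vehicle-treated and 1827 in topotecan-treated Top1 cKO cells. The part of these cells in the class I values was not tested. Without the block, 5 of the 15 microglia markers were lower in Top1 cKO-Veh than in WT-Veh at an unadjusted p under 0.05 (median log2 −1.36, with 4.82% of all genes lower). In Top1 cKO-Topot 7 were lower than in WT-Topot (median −1.71, with 7.28% of all genes lower). These are the comparisons in which B2m was lower with the block. Of the 9 astrocyte markers 2 passed without the block and 4 with it, all lower, in WT-Topot against WT-Veh (2.72 and 8.25% of all genes passed). H2-K1 and H2-D1 were lower there with the block. Without it 6 of the 9 markers had negative and 3 positive log2 fold changes in that comparison. For topotecan within Top1 cKO cells, where no class I member passed, all 9 were negative (median −0.90). Of them 0 passed there without the block (0.00837% of all genes) and 5 with it, all lower (2.59%). The class I genes H2-Q4 and H2-Q6, outside the 34, also passed there as lower with the block. In Top1 cKO-Veh against WT-Veh, where H2-D1 was lower with the block, the astrocyte median was 0.02. The part of microglia and astrocytes in these results was not tested either.

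**Figure D4:**
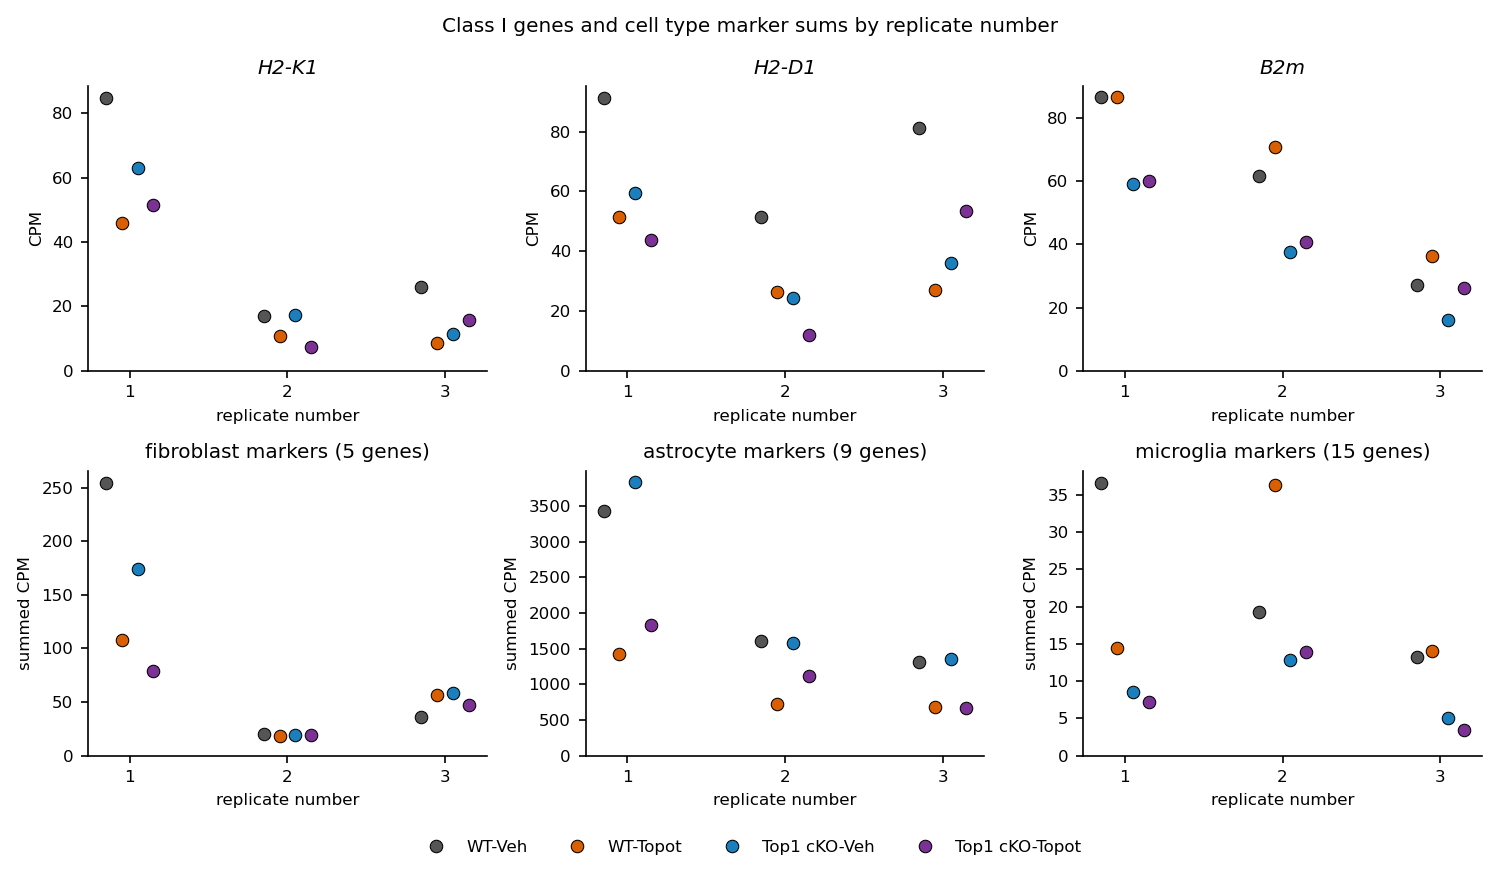
Levels of class I genes and summed levels of fibroblast, astrocyte and microglia markers in each library (CPM, linear axes from 0), by replicate number on the x axis and group by colour. H2-K1 and the fibroblast markers are highest in the replicate 1 libraries of all groups (45.9 to 84.6 and 79.3 to 254 CPM).

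Genes of the same pathways outside the 34 were read from a list of symbols, of which 129 were in the table and 5 were not. Without and with the block, 2 and 7 of them passed in WT-Topot against WT-Veh, 0 and 6 in Top1 cKO-Veh against WT-Veh, 0 and 5 for topotecan within Top1 cKO cells, 2 and 9 in Top1 cKO-Topot against WT-Topot, 1 and 3 in WT-Topot against Top1 cKO-Veh and 0 and 4 in the interaction. With the block these were 5.43, 4.65, 3.88, 6.98, 2.33 and 3.1% of the list, compared with 8.25, 5.56, 2.59, 8.69, 7.73 and 3.97% of all genes, so only for topotecan within Top1 cKO cells was the share above that of all genes. Interferon genes themselves were hardly seen: 11 of 13 interferon ligands, Ifnb1 among them, had no count in any library, and the others held 2 counts together. At these depths 0 counts in a library still allow 0.687 to 1.73 CPM. Of the receptors, Ifngr2, the signalling chain for interferon gamma, stood at 91.0, 74.1 and 79.5 CPM in WT-Veh and 167, 145 and 147 in WT-Topot, with 70.4, 66.0 and 67.6 in vehicle-treated and 68.1, 86.0 and 64.7 in topotecan-treated Top1 cKO cells. As for Irf9, the WT-Topot libraries lay above all others. Ifngr2 rose in WT-Topot against WT-Veh (log2 0.91, SE 0.183, adjusted p = 0.00386), though not without WT-Veh replicate 2 (0.84, adjusted p = 0.0184) or WT-Topot replicate 1 (0.85, adjusted p = 0.0186). It was lower in Top1 cKO-Topot than in WT-Topot (−1.07, adjusted p = 0.000593) and, in WT-Topot set against Top1 cKO-Veh, it was higher (1.17, adjusted p = 0.000587). Ifnar1 did not pass in WT-Topot against WT-Veh (0.22, adjusted p = 0.833), and Ifnar2 was at 5.18 to 19.4 CPM with no call.

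Cmpk2, a mitochondrial nucleotide kinase next to Rsad2, also had its highest levels in WT-Topot. It stood at 37.2, 31.6 and 54.7 CPM in WT-Veh and 92.5, 67.3 and 108 in WT-Topot, with 47.7, 42.4 and 59.1 in vehicle-treated and 43.8, 41.8 and 39.3 in topotecan-treated Top1 cKO cells. The WT-Topot libraries lay above all others, and the remaining groups overlapped each other. Cmpk2 rose in WT-Topot against WT-Veh (log2 1.14, SE 0.241, adjusted p = 0.00613), a call lost without WT-Veh replicate 2 (0.98, adjusted p = 0.025) and WT-Topot replicate 3 (0.97, adjusted p = 0.0316). It was lower in Top1 cKO-Topot than in WT-Topot (−1.10, adjusted p = 0.00184). Psmb10, the third inducible proteasome subunit, rose in WT-Topot against WT-Veh with the block (1.26, adjusted p = 0.000669; without it 1.31, adjusted p = 0.0312). The DNA-sensing genes Mb21d1 (cGAS) and Tmem173 (STING) had means of 1.37 and 0.258 CPM.

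Other genes of antigen presentation also fell with the block. H2-L was lower in WT-Topot than in WT-Veh with the block (log2 −1.07 without it, adjusted p = 0.0261, and 5.11e-06 with it), but its counts were 0.636 to 0.833 of those of H2-D1 in the libraries, and the C57BL/6 haplotype is known to carry no separate L gene, so it may not be a further gene, although it is among the genes counted above. H2-Q7 stood at 21.9, 15.3 and 28.2 CPM in WT-Veh, 11.4, 16.3 and 0.856 in WT-Topot and 9.39, 2.52 and 1 in Top1 cKO-Veh. WT-Topot was below WT-Veh in replicates 1 and 3 but not in replicate 2, and WT-Topot replicate 3 held 2 counts. H2-Q7 was lower with the block in WT-Topot (−1.18) and Top1 cKO-Veh (−2.32, adjusted p = 6.8e-12) against WT-Veh. Neither passed in the unblocked fit of all libraries. Unblocked, the former was −0.64 to −1.75 with 1 library left out. The latter was −2.33, or −3.45 when Top1 cKO-Veh replicate 1 was omitted, and −1.95 at its smallest over the alternatives. With the block its close relatives H2-Q4 and H2-Q6 also passed as lower in Top1 cKO-Veh against WT-Veh. They did so in Top1 cKO-Topot against WT-Topot and for topotecan within Top1 cKO cells, and H2-Q4 in WT-Topot against WT-Veh. H2-Q6 held 0 counts in WT-Topot replicate 3 and in replicates 1 and 2 of Top1 cKO-Topot, with counts in the other libraries. These genes may share reads. Cd74, the invariant chain of class II molecules and a product of microglia and other antigen-presenting cells, stood at 14.0, 3.94 and 7.49 CPM in WT-Veh and 2.35, 1.43 and 0.856 in WT-Topot, with 2.74, 0 and 0.501 in vehicle-treated and 6.37, 0.332 and 2.19 in topotecan-treated Top1 cKO cells. WT-Veh lay above WT-Topot and Top1 cKO-Veh. With the block Cd74 fell in both (−2.33, adjusted p = 4.9e-05, and −3.09, adjusted p = 9.95e-07), and without it neither passed (adjusted p = 0.0109 and 0.109). The unblocked values were −2.42 and −3.11. Leaving out 1 library moved the former between −2.82 and −1.81 and the latter between −5.39 and −2.30. The ends of the latter range came from the fits that omitted replicate 1 or replicate 2 of Top1 cKO-Veh. Tap2 and Tapbp did not pass in any comparison.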

How the data were processed

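RNA-seq libraries of 12 cultures, 3 per group, were grouped by their GEO labels; per the study's methods the replicates were separate cultures. The authors deposited raw counts, 1 per gene symbol and library, of polyA RNA over RefSeq exons. Behind them lie TopHat alignments on the mm9 assembly, without rRNA, of reads that TagDust had kept. The counting program, its use of strand and the RefSeq release are not given in the sources used here. Total counts were 1730164 to 4583777 per library, and a floor of 3 counts per library was used (counting error only). The table held 23893 genes, 5182 of them with no count.

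From these counts, each comparison was fitted on its 6 libraries, and the interaction on all 12, with edgeR 4.0.16 (R 4.3.3): TMM scaling, no filter on genes, the quasi-likelihood test and Benjamini-Hochberg adjustment over all genes at an FDR of 0.01. CPM used TMM-adjusted library sizes, and SE is the log2 fold change divided by the root of F. For groups at the floor, fitted fold changes are no bound. Over the 13720 genes that averaged 1 CPM or more, deviations from group means correlated at 0.253 to 0.47 in 18 pairs of libraries with the same replicate number and at -0.37 to -0.0534 in 36 other pairs, so the numbers pair the cultures and the block value is given where it changes a call. No 2 libraries of a group were repeats: their counts differed with a dispersion index of 6.05 to 10.1 (1 for sampling noise alone).

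Members, lists and tests were chosen with earlier results of these data known. Values in every library are given for members with a mean of at least 1 CPM that passed in any comparison, for the transcription factors and antigen presentation genes, and for Samd9l, Isg15, Ifit1 and Cxcl10; of the pathway list, genes that passed and 8 fixed genes are named, except for a gene that is not reported here. Motifs were searched in RefSeq windows (GRCm38.p6), and mm9 positions are those of the genes in the NCBIM37 annotation. Alternatives were median-ratio (RLE) scaling, filterByExpr, DESeq2 1.42.0, edgeR's exact test, an FDR of 0.05, the replicate block, each library left out and, added after seeing the data, replicate 1 left out of every group. Scripts were tested on simulated data. Figures were drawn with matplotlib 3.10.9 in Python 3.11.15.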

Additional observations from a re-analysis of the deposited data

Results flagged for a closer look

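The effect of topotecan differed between Top1 cKO and WT cells in 6 genes by the interaction test with the replicate block (edgeR's quasi-likelihood test, Benjamini-Hochberg adjustment over all genes); without the block none of these 6 passed an FDR of 0.01. Differences are on the log2 scale, Top1 cKO minus WT. For Samd9l the difference was -2.8 (adjusted p = 8.58e-05 with the block and 0.0195 without it). The gene was higher under topotecan in 3 of 3 WT pairs, and the Top1 cKO pairs were mixed (ratios 1.1, 1.86 and 0.549). Under vehicle Samd9l was already higher in Top1 cKO than in WT cells, at 1.93, 4.88 and 4.7 times within replicates 1, 2 and 3. For Irf9 it was -1.77 (adjusted p = 0.00769; 0.306 without the block). Cmpk2 gave -1.36 (adjusted p = 4.25e-05; 0.0376 without the block). Ifngr2 gave -0.8 (adjusted p = 0.00533; 0.14 without the block). Psmb10 gave -1.67 (adjusted p = 0.00704; 0.126 without the block). Cd74 went the other way, at 3.81 (adjusted p = 0.00166; 0.168 without the block), and was 2.70 to 6.25 over the alternatives, with low counts in the topotecan and Top1 cKO libraries.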

How the results depend on the processing

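Counts of members that passed moved as follows. With the replicate block they were 5 in WT-Topot against WT-Veh (3 by DESeq2 or at an FDR of 0.05), 3 in Top1 cKO-Veh against WT-Veh, 0 in Top1 cKO-Topot against Top1 cKO-Veh, 3 in Top1 cKO-Topot against WT-Topot, 5 in WT-Topot against Top1 cKO-Veh and 2 in the interaction; the block changed no other call among the members. Leaving out each library gave 2 to 4 in WT-Topot against WT-Veh, 0 to 1 in Top1 cKO-Topot against WT-Topot, 0 to 3 in WT-Topot against Top1 cKO-Veh, 0 to 1 in the interaction and 0 in the others. The filter on low counts left 0 in Top1 cKO-Topot against WT-Topot and 0 in WT-Topot against Top1 cKO-Veh. WT-Topot against Top1 cKO-Veh had 2 at an FDR of 0.05, by DESeq2, by the exact test and without replicate 1 in every group, and the interaction had 1 at an FDR of 0.05, by DESeq2 and without replicate 1. Samd9l and Irf9 passed in WT-Topot against WT-Veh under every alternative run (log2 2.70 to 3.33 and 1.80 to 2.50). Irf9 in Top1 cKO-Topot against WT-Topot missed the threshold with the filter (-1.58, adjusted p = 0.0212). In WT-Topot against WT-Veh, Cmpk2 missed it with the filter (1.11, adjusted p = 0.0212) and without replicate 1 in every group (1.02, adjusted p = 0.0235), as did Ifngr2 without replicate 1 (0.92, adjusted p = 0.0322); in Top1 cKO-Topot against WT-Topot Ifngr2 missed it without replicate 1 (-0.96, adjusted p = 0.0151) and Cmpk2 without Top1 cKO-Topot replicate 2 (-1.11, adjusted p = 0.0111). Signs turned only in values that had not passed without the block, but H2-K1 in WT-Topot against WT-Veh had passed with it. In WT-Topot against WT-Veh, leaving out 1 library gave -1.20 to 0.55 for Ifit1 (0.06 with all), -0.19 to 0.52 for B2m, -2.13 to 0.04 for H2-K1 and -0.37 to 0.78 for Tap1; Ifit1 was -1.47 and Tap1 0.77 without replicate 1 in every group, and Tap1 was 0.07 with the block. In Top1 cKO-Veh against WT-Veh it gave -0.37 to 0.56 for Irf9, -1.56 to 0.52 for H2-K1 and -0.45 to 0.70 for Tap1, which was 0.46 without replicate 1 in every group. The negative Ifit1 values came without replicate 1 of either group, and the positive H2-K1 values without WT-Veh replicate 1. The median member level (WT-Veh 1.21, WT-Topot 1.87, Top1 cKO-Veh 1.16, Top1 cKO-Topot 1.70) was 0.63, 1.53, 0.55 and 1.30 with a pseudocount of 0.25 and 2.16, 2.75, 2.38 and 2.58 over members of at least 1 CPM; leaving out a library gave 1.08 to 1.28, 1.74 to 1.98, 0.97 to 1.28 and 1.48 to 1.81. Of 782 alternatives to 63 values of single genes, 660 left direction and side of the threshold as they were, 90 newly passed, 16 no longer passed and 16 turned sign. The cause of these moves was not tested. Depth limits the members at the floor most: 3 counts were up to 1.73 CPM.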

Other observations

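Some further genes of the pathway list passed with the replicate block and not without it. Jak2, the kinase of the interferon gamma receptor and of several cytokine receptors, stood at 19.9, 25.0 and 24.8 CPM in WT-Veh and 36.2, 37.5 and 37.3 in WT-Topot, with 36.4, 45.1 and 40.1 in vehicle-treated and 70.5, 70.4 and 57.3 in topotecan-treated Top1 cKO cells. WT-Veh was the lowest group and Top1 cKO-Topot the highest, neither overlapping another. With the block, Jak2 rose in Top1 cKO-Veh against WT-Veh (log2 0.81, adjusted p = 0.0014), in Top1 cKO-Topot against Top1 cKO-Veh (0.72, adjusted p = 0.000335) and in Top1 cKO-Topot against WT-Topot (0.83, adjusted p = 0.000107; 0.014 without the block). Ifitm3, a membrane protein that hinders virus entry, was higher with the block in Top1 cKO-Topot than under vehicle (1.55) and than in WT-Topot (1.10). Over the alternatives the former ran from 1.22 to 2.30, the high end unblocked without Top1 cKO-Veh replicate 1. The latter ran from 0.75 to 1.69, the high end unblocked without WT-Topot replicate 1. Irf2, which competes with IRF1, was higher with the block in Top1 cKO-Topot than in WT-Topot (0.92), and Samhd1, which breaks down nucleotides, was higher in WT-Topot when set against Top1 cKO-Veh (0.95). The class I folding helpers moved little: Calr (calreticulin) fell with the block in Top1 cKO-Topot against its vehicle (-0.34) and against WT-Topot (-0.36), and Pdia3 fell against WT-Topot (-0.42).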
